A study of Mus musculus with 8 samples.

Results

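The cytoskeletal genes Actb and Tuba1b, chosen by the RefSeq accessions NM_007393.3 and NM_011654.2 that their probes carry, are 2 of the 15 genes with a named probe among the 60915 non-control probes of the arrays. RNA from the hippocampus of 7-day-old mice was measured on 8 Agilent arrays with a single dye, 4 for propofol and 4 for vehicle. Propofol, an anaesthetic that acts on GABA-A receptors, and the intralipid vehicle were each injected into the peritoneum at 50 mg/kg, with 3 h of exposure and then 3 h of washout before tissue collection. The labels give no strain or sex and do not say whether an array holds 1 pup or a pool, so p-values measure the spread between these samples, which may be technical.

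Actb encodes beta-actin, a cytoplasmic actin whose filaments form the cell cortex, growth cones and dendritic spines of neurons. Tuba1b encodes an alpha-tubulin, which pairs with beta-tubulin to build the microtubules that fill axons and dendrites and serve as tracks for transport. In the early postnatal hippocampus, neurites extend and synapses form, and both polymers are in heavy use. Both genes are also common reference genes for normalising RNA measurements. Their close relatives, such as the gamma-actin gene Actg1 and the alpha-tubulin gene Tuba1a, have very similar coding sequences, and signal from them was not separated, since probe sequences were not used here.

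Array brightness, taken as the 75th percentile of the spot signal, ran from 656 to 991 units in vehicle and from 871 to 1006 units in propofol (exact permutation p = 0.143, n = 4 each). Slide 1 held only vehicle and slide 2 only propofol, so treatment and slide cannot be told apart in what follows. Of the 30 genes in a list of actins, tubulins and their regulators, only Actb and Tuba1b had a named probe. None of the marker genes of hippocampal neurons, astrocytes, oligodendrocyte lineage, microglia or vessels had one, so the tissue label was not checked against markers. In bulk tissue, fewer cells of a type and less RNA per cell cannot be told apart.

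Both genes sat at the bright end of the arrays. Actb ranked between 575th and 1070th in signal among all probes of an array, within the brightest 1.77% on each of the 8 arrays. Tuba1b ranked between 45th and 151st, within the brightest 0.249% on each. These ranks describe probe signal, which depends on the probe as well as on the transcript, and do not set the abundance of beta-actin RNA against that of alpha-tubulin RNA. Each gene was printed on 20 spots per array. All 320 spots over the 8 arrays were well above background and 0 were saturated. The spots left after removing outlier spots reached 84984 units for Actb and 353581 units for Tuba1b, below the scanner's saturation value of 778086.

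**Figure D1:**
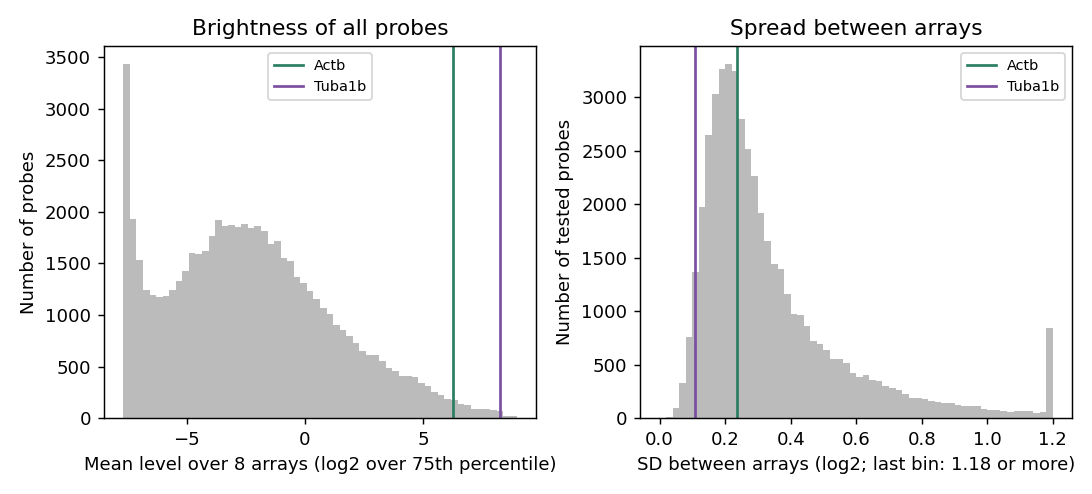
The left panel counts all probes by mean level over the 8 arrays, in log2 over the 75th percentile of the array, and the right panel counts tested probes by the SD between arrays of a group. Vertical lines mark Actb and Tuba1b: both lie in the bright tail on the left, and on the right Tuba1b lies near the low end at 0.11 while Actb lies near the bulk at 0.24.

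Actb had a wider spread between arrays than Tuba1b, a contrast given here as values without a test. In vehicle, the Actb level, in log2 over the 75th percentile of the array, was 6.66, 6.56, 6.37 and 5.97 in replicates 1 to 4. In propofol it was 6.26, 6.11, 5.97 and 6.24. Vehicle replicates 1 to 3 stood above every propofol array, and vehicle replicate 4 stood below all of them by a margin as small as 5.966 against 5.970, so the groups overlapped. The vehicle arrays alone spanned a 1.62-fold range of Actb, against 1.22-fold among the propofol arrays. Without vehicle replicate 4, the other vehicle arrays ran from 6.37 to 6.66, also a 1.22-fold range. The rank of Actb among all probes was 575th, 682nd, 913th and 846th in vehicle replicates 1 to 4. In propofol it was 971st, 1070th, 1007th and 788th. By rank, vehicle replicate 4 thus stood above vehicle replicate 3 and propofol replicates 1 to 3, unlike by level, and the reason was not tested.

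The Tuba1b level was 8.30, 8.26, 8.21 and 8.06 in vehicle replicates 1 to 4. In propofol it was 8.42, 8.32, 8.18 and 8.19. The groups overlapped, with propofol replicates 1 and 2 above every vehicle array and vehicle replicate 4 below every propofol array. Over all 8 arrays Tuba1b spanned a 1.28-fold range. Its rank among all probes was 77th, 84th, 151st and 63rd in vehicle replicates 1 to 4 and 104th, 61st, 45th and 80th in propofol. Vehicle replicate 4 was thus lowest by level but not by rank.

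**Figure D2:**
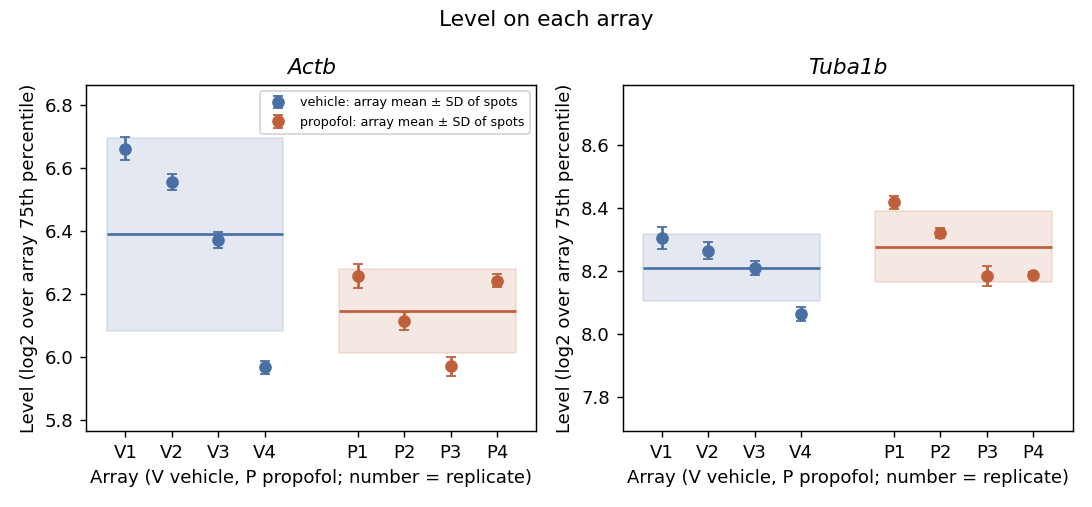
Level of Actb (left) and Tuba1b (right) on each array, in log2 over the 75th percentile of the array, with error bars for the SD of the spots on that array, lines for group means and shaded bands for ± 1 SD between arrays. Both panels span the same number of log2 units, and the Actb band in vehicle, at 6.39 ± 0.31, is the widest.

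The 20 spots of a gene gave nearly the same value on an array, so the spread lay between arrays. The SD of the spots had a median of 0.027 for Actb and 0.022 for Tuba1b on the log2 scale. The SD between arrays of a group was 0.24 for Actb, 8.71 times its spot SD, and 0.11 for Tuba1b, 4.93 times its spot SD. Of the 47777 tested probes, 3.62% had an SD between arrays as low as that of Tuba1b, and 40.7% had one as low as that of Actb, with a median over all of 0.27. These shares were not matched for brightness or number of spots. Each of the pair is a mean of up to 20 spots, while nearly all other probes have a single spot. Among the 15 named genes in order of this SD, from the lowest, Tuba1b was the 4th and Actb the 12th. Spots repeat the same labelled RNA and are not replicates of a condition.

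The comparison of propofol with vehicle asks whether either transcript differed at the end of the washout, and neither passed the test. Actb was 6.15 ± 0.13 (SD, n = 4) in propofol and 6.39 ± 0.31 (SD, n = 4) in vehicle. That difference of -0.24 on the log2 scale corresponds to 0.845-fold, with a 95% interval from 0.645 to 1.11 (limma, SE 0.17, adjusted p = 0.772). The mean of vehicle, which the high replicates 1 and 2 raised, was above each of the 4 propofol arrays. Tuba1b was 8.28 ± 0.11 (SD, n = 4) in propofol and 8.21 ± 0.11 (SD, n = 4) in vehicle. Its difference of 0.07 on the log2 scale corresponds to 1.05-fold, with a 95% interval from 0.867 to 1.27 (limma, SE 0.12, adjusted p = 0.929), and the propofol arrays were split evenly, 2 above and 2 below the mean of vehicle.

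Of the pair, 0 passed an adjusted p of 0.05 and 0 passed an unadjusted p of 0.05, where over all tested probes 0% passed the first and 7.86% the second. The groups overlapped for both genes, and over all probes with a value on each array they did not overlap at 5.37%. The median difference over all tested probes was -0.04. A difference at least as large as that of Actb, in either direction, was found at 32.5% of the tested probes, and one at least as large as that of Tuba1b at 78.5%. None of these shares was matched for brightness or number of spots.

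The size of the Actb difference moved with vehicle replicates 4 and 1, in opposite directions, and with the scaling. Without vehicle replicate 4, it was -0.38 (unadjusted p = 0.0281, adjusted p = 0.860 in limma), and without vehicle replicate 1 it was -0.15 (adjusted p = 0.889 in limma). Without any scaling of the arrays, where the median of all probes rose to 0.17, the difference was -0.03 for Actb and 0.28 for Tuba1b, and both fell short of the adjusted threshold. Relative to that median, Actb stood at -0.21 and Tuba1b at 0.10. These values are the same at the main scaling by construction, since scaling shifts all probes of an array alike, so they are no check on it.

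**Figure D3:**
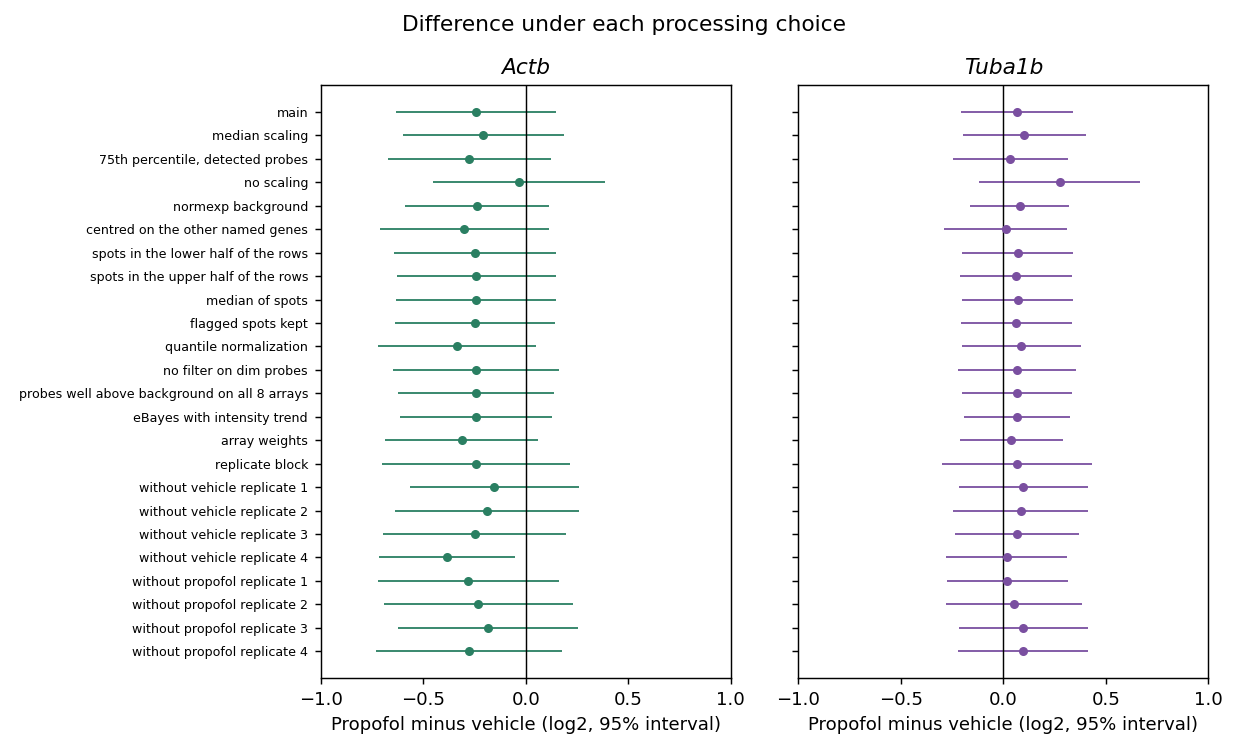
Difference of propofol minus vehicle on the log2 scale for Actb (left) and Tuba1b (right) under each processing choice, with points for estimates and bars for 95% intervals. The Actb interval leaves out 0 only without vehicle replicate 4, at -0.38, and every Tuba1b interval includes 0.

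The difference between both genes on the same array does not depend on a scaling factor. Actb minus Tuba1b in log2 signal was -1.64, -1.71, -1.84 and -2.10 in vehicle replicates 1 to 4. In propofol it was -2.16, -2.21, -2.21 and -1.95. Vehicle replicate 4 lay inside the propofol range, and the other vehicle arrays lay above it. The vehicle mean was -1.82 ± 0.20 (SD, n = 4) and the propofol mean -2.13 ± 0.13 (SD, n = 4). Relative to Tuba1b, mean Actb in propofol was 0.807-fold that in vehicle, a difference of -0.31 in log2, with p = 0.0571 by a two-sided exact permutation test over the 70 assignments and a 95% interval from -0.57 to 0.15. The smallest p that 4 against 4 arrays can give is 0.0286. Array brightness had a Pearson r of -0.67 with this ratio (p = 0.0551 by exact permutation, 0.470 after adjustment). The r was -0.25 without the 2 arrays most distant from the median brightness. The part of brightness in the result was not tested.

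Against each of the 14 other named genes on the same array, mean Actb was lower in propofol in 14 of 14 ratios. The log2 differences ran from -0.68 to -0.05, and all share the same Actb values. That count follows from Actb having the lowest difference among the 15 named genes, so it is no separate result. The groups overlapped in every one of these ratios. For Tuba1b, 9 of 14 ratios were higher and 5 lower in propofol, from -0.37 to 0.31. The groups did not overlap in 1 of them, against Ppia, where Tuba1b was higher by 0.13. This ratio was singled out after its values were seen. Among single probes with a value on all arrays, the groups did not overlap at 5.37%, and no such share was computed for ratios.

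From array to array, the levels of Actb and Tuba1b had positive correlations that did not pass the threshold. Over the 8 arrays the Pearson r of their levels was 0.45, with an exact permutation p of 0.264, and the Spearman rho was 0.55, with an exact permutation p of 0.171. When vehicle replicates 1 and 2, the most distant from the median Actb level, were left out, r was 0.47 (p = 0.358 by exact permutation). With both genes centred on the mean of each group, which is also each slide, r was 0.77 (exact permutation within groups p = 0.0260). Over both values of r, the adjusted p was 0.264 for the levels and 0.0521 for the centred levels, so neither passed 0.05. With 1 array left out, the centred r ran from 0.56 without vehicle replicate 4 to 0.93 without propofol replicate 4. With quantile normalization r was -0.12 over the levels and 0.16 after centring. Under the other scalings and the normexp background correction, r over the levels ran from 0.40 to 0.63.

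**Figure D4:**
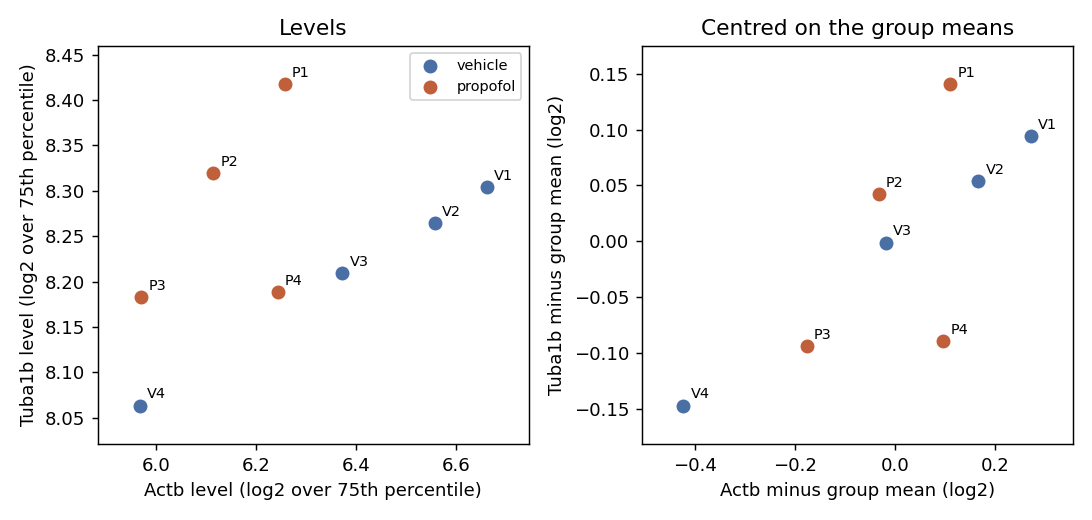
Tuba1b against Actb, one point per array, as levels in log2 over the 75th percentile (left) and after subtracting the mean of each group (right). On the left every propofol array lies at a lower Actb level than vehicle replicates 1 to 3, and on the right, where r is 0.77, vehicle replicate 4 sits lowest on both axes.

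Across the tested probes with a value on all 8 arrays, 13.9% followed Actb at an r as high as that of Tuba1b, and 10.8% followed Tuba1b at an r as high as that of Actb. Among the other 13 named genes, Ppia, which encodes the prolyl isomerase cyclophilin A, was most like Actb at r = 0.70. Ldhal6b, a lactate dehydrogenase-like gene, followed at 0.56 and Gapdh, a glycolytic enzyme, at 0.22. The Ldhal6b level was between -3.79 and -3.76 on every array but propofol replicates 2 and 3, at -4.18 and -4.16. An r with Actb as high as that of Gapdh was found at 33.7% of the probes. The remaining 10 had r below 0 with Actb. For Tuba1b the closest were Gapdh at 0.84, Ppia at 0.66 and Gk, glycerol kinase, at 0.43. Only 0.216% of the probes followed Tuba1b as closely as Gapdh did. The shares of probes given here were not matched for brightness or number of spots. After centring on the group means, Ppia and Tuba1b had an r of 0.94. These values describe 8 arrays that share their scaling, so they carry no p.

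**Figure D5:**
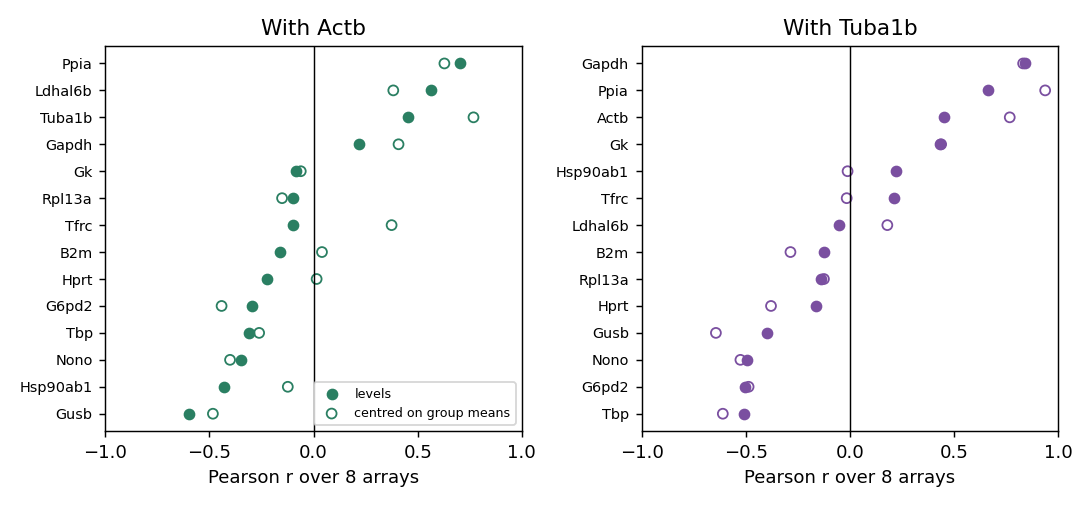
Pearson r over the 8 arrays between Actb (left) or Tuba1b (right) and each of the other named genes, with filled points for levels and open points for levels centred on the group means. Ppia and Gapdh stand among the highest in both panels, and most other genes lie below 0.

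At the scaling used here, neither gene followed brightness, the Pgk1 contrast or the Gapdh contrast past the threshold. Without scaling, the level keeps the brightness of the array, so a relation with brightness is partly built in. How far this enters the relations with the contrasts was not tested. In that setting, Actb with the Pgk1 contrast passed the threshold (adjusted p = 0.0376 by exact permutation). So did Tuba1b with brightness (0.000893) and with the Pgk1 and Gapdh contrasts (0.0376 each). With quantile normalization, Actb with brightness passed it (0.0281). Control spots for mouse Pgk1, an enzyme of glycolysis, were used as a possible measure of coverage along transcripts. Their suffixes 3 and 5 were taken to mean the ends of the transcript. The log2 contrast of suffix 3 minus suffix 5 ran from 8.19 to 8.97 in vehicle and from 8.32 to 8.88 in propofol (exact permutation p = 0.800). The same contrast of Gapdh control spots ran from -0.62 to -0.02 in vehicle and from -0.31 to -0.11 in propofol (exact permutation p = 0.200). The Pgk1 and Gapdh contrasts thus had opposite signs on every array, and whether either follows coverage was not tested. For Tuba1b, r with the Pgk1 contrast was 0.62 (p = 0.104 by exact permutation, 0.470 after adjustment). The rho was 0.62 (p = 0.115 by exact permutation, 0.517 after adjustment). The r of Tuba1b was 0.73 when the 2 arrays most distant from the median Pgk1 contrast were left out and 0.62 after centring on the groups. For Actb, r with the Pgk1 contrast was 0.22 (p = 0.589 by exact permutation, 0.867 after adjustment). The rho was 0.36 (p = 0.389 by exact permutation, 0.701 after adjustment). The r of Actb was 0.19 with those arrays left out and 0.31 after centring.

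With brightness, which is subtracted in the level itself, r was -0.53 for Actb (p = 0.179 by exact permutation, 0.537 after adjustment) and rho was -0.24 (p = 0.582 by exact permutation, 0.748 after adjustment). The r was 0.12 when the 2 arrays most distant from the median brightness were left out and -0.35 after centring. For Actb minus Tuba1b, which no scaling factor enters, r with brightness was -0.67 (p = 0.0551 by exact permutation, 0.470 after adjustment) and rho was -0.64 (p = 0.0962 by exact permutation, 0.517 after adjustment). The r was -0.25 with those arrays left out and -0.47 after centring, so the relation rested on those arrays. The p-values were adjusted over 9 correlations, of Actb, Tuba1b and their difference with brightness and with the Pgk1 and Gapdh contrasts. The other 5 had r from -0.25 to 0.44 (smallest exact permutation p = 0.275).

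The share of probes well above background, a measure added after the values above were seen, ran from 78.1% to 83.4% in vehicle and from 72.9% to 79.3% in propofol (exact permutation p = 0.0857). For Tuba1b, r with this share was -0.75 (p = 0.0323 by exact permutation, 0.331 after adjustment over 12 correlations) and rho was -0.67 (p = 0.0831 by exact permutation, 0.460 after adjustment). Its r was -0.52 when the 2 arrays most distant from the median share were left out (exact permutation p = 0.304) and -0.78 after centring on the groups. For Actb, r was 0.12 (p = 0.764 by exact permutation, 0.917 after adjustment) and rho was 0 (exact permutation p = 1), with r at 0.55 without those arrays and -0.41 after centring. For Actb minus Tuba1b, r was 0.49 (p = 0.215 by exact permutation, 0.516 after adjustment) and rho was 0.52 (p = 0.197 by exact permutation), with r at 0.78 without those arrays and -0.08 after centring. The part of this share in the group differences was not tested.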

How the data were processed

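The members and lists were chosen with earlier results of these data known. RNA depleted of ribosomal RNA was labelled with Cy3 by oligo(dT) and random primers, per the labels' protocols. Per the file headers, Agilent Feature Extraction 11.0.1.1 gave each spot an intensity after background subtraction. The series' table of deposited values is in log2 intensity over 22032 probes, by a normalization not given in the sources used here. It holds 0 of the member probes and served only for a count over all probes.

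Control spots and 15 negative control probes were left out, leaving 61200 spots per array. Levels are log2 of the processed signal minus log2 of the array's 75th percentile. Spots flagged as outliers (0.413%) were dropped and spots of a probe averaged. Probes well above background on at least 4 arrays, with at least 2 values per group, were tested in R 4.3.3 with limma 3.58.1 (lmFit, eBayes), two-sided, Benjamini-Hochberg over 47777 probes, threshold 0.05. The fit was tested on simulated data. Single values used exact two-sided permutation tests over arrays in Python 3.11.15; the interval of Actb minus Tuba1b came from inverting that test. The number of arrays limits the precision. Gene names came from accessions matched without versions to RefSeq of GRCm38.p6; all 15 matched. The grid names an older build, so no coordinates are given. Beside the pair, the 3 named genes closest to each by r are described singly. For same-numbered arrays, which share a position on their slides, the correlations of deviations from the group means had mixed signs.

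Alternatives were other scalings, a normexp background correction on the median signal, filters, spot choices, variance models, a replicate block and leaving out each array.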

Additional observations from a re-analysis of the deposited data

How the results depend on the processing

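Over 23 alternatives each, Actb stayed lower and Tuba1b higher in propofol, short of the adjusted threshold in limma. Those with other filters, an intensity trend or a replicate block leave the differences as they were by construction, so their signs were fixed in advance. Differences ran from -0.33 (quantile normalization) to -0.03 (no scaling) for Actb and from 0.01 (centred on the other named genes) to 0.28 (no scaling) for Tuba1b. With 1 array left out they ran from -0.38 to -0.15 and from 0.02 to 0.10. Actb minus Tuba1b ran from -0.42 to -0.30, and from -0.40 to -0.25 with 1 array left out. With the replicate block the differences were -0.24 for Actb, 0.07 for Tuba1b and -0.31 between them, and no call changed; deviations of same-numbered arrays correlated at -0.33, 0.07, -0.11 and 0.22, so the numbers do not pair the samples. Over all probes limma gave 0 past the threshold and 3756 by unadjusted p under 0.05, against 1 without scaling (5736 unadjusted) and 3 with normexp. Unadjusted counts were 6206 with no filter (more probes), 6548 with array weights, 2490 with the block and 1368 in the deposited table (fewer probes). The share higher in propofol, 45.2%, was 56.1% with median scaling, 34.0% over detected probes, 27.5% centred on the other named genes and 95.1% without scaling.

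With quantile normalization, r was -0.12 between the genes, -0.89 for Actb with brightness, -0.42 for Actb and -0.67 for Tuba1b with the Pgk1 contrast, and -0.19 and -0.48 for Tuba1b with brightness and the Gapdh contrast. Without scaling, r with brightness, the Pgk1 and the Gapdh contrast was 0.32, 0.85 and 0.63 for Actb and 0.90, 0.82 and 0.81 for Tuba1b. Of these, 4 passed the adjusted threshold, in a setting where the level still holds the brightness of the array. With quantile normalization, Actb with brightness passed it. Median scaling gave 0.11 for Actb with the Gapdh contrast, and the 75th percentile over detected probes gave -0.11 for Tuba1b with brightness. With 1 array left out, r between the genes ran from 0.20 to 0.61. In the same order of measures, r ran from -0.71 to 0.012, -0.035 to 0.57 and -0.52 to 0.31 for Actb, from -0.089 to 0.70, 0.42 to 0.84 and -0.0024 to 0.61 for Tuba1b, and from -0.81 to -0.39, -0.23 to 0.19 and -0.53 to -0.0054 for their difference. The cause was not tested. The deposited table could not be run for the pair.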
